A study of Homo sapiens with 9 samples.

Results

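The genes described here encode the nuclear pore complex, the carriers and the regulators that move proteins and RNA through it, and the proteins that tie the nuclear envelope to the cytoskeleton. They were taken from the deposited table for doxorubicin against control by gene symbol alone (symbols such as NUP, KPNA, KPNB, IPO, TNPO, XPO, RANBP, SUN and SYNE), which gave 44 of the 6499 genes that the table lists. Of these 44, 39 have a role at the pore, in transport or in the envelope, 2 share only the name (NUPR1, a stress-response regulator of transcription, and RANBP9, a scaffold protein of a ubiquitin ligase complex), and 3 are pseudogenes (KPNA2P3, XPOTP1 and POM121L9P). The cells were WI-38, a human cell line of diploid fibroblasts from lung that stops dividing after a limited number of passages, at population doubling 30. The series holds 9 RNA-seq samples in 3 groups of 3. The control group received DMSO in place of doxorubicin and then DMSO-containing medium over the 48 h period. The model group received 1 μM doxorubicin, an anthracycline that blocks topoisomerase II and breaks DNA, over the 12 h period and then DMSO-containing medium for 48 h. The 3 libraries with oridonin after doxorubicin were not analysed here. The labels do not say whether the 3 libraries of a group came from separate cultures, so the spread between them may be technical.

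The nuclear pore is a ring of proteins called nucleoporins. Its outer Y complex and inner ring form the scaffold, transmembrane nucleoporins anchor it in the envelope, and nucleoporins rich in phenylalanine-glycine repeats fill the channel and set what passes. Large cargo crosses bound to karyopherins: importin alpha reads the classical nuclear localization signal and importin beta carries the pair through the pore, other importins carry their own cargo, and exportins work in the opposite direction. The direction is set by the small GTPase RAN, which is loaded with GTP in the nucleus by RCC1 and is made to hydrolyse it in the cytoplasm by RANGAP1. The pore is taken apart and rebuilt each time a human cell divides.

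Each listed gene had passed the authors' own fold change and p thresholds on these same libraries, so none of the tests below is independent of how the genes came to be listed, and they describe the size of each change against the spread of the libraries. The table does not name its unit. The values were read as TPM (transcript abundance relative to the total of a library), which can be compared between genes because they are scaled to transcript length. FPKM would differ from TPM only by a constant for each library, so values were also compared after quantile normalization and after scaling each library to its median ratio. Both scalings were computed from the tested genes of this table alone, all of them selected by the authors as changed. They therefore cannot show which scale is right. The listed genes held 54.3 to 54.8% of all TPM in control libraries and 58.6 to 60.0% in doxorubicin libraries. The number of reads per library is unknown, and so precision was judged from the replicates alone. Of the fibroblast markers COL1A1, COL1A2, COL3A1, VIM, THY1, PDGFRA, PDGFRB, DCN, LUM, FAP and S100A4, 5 of 11 are listed, with summed levels of 5842 to 6195 TPM in control and 3930 to 4616 TPM in doxorubicin libraries. Of the epithelial markers 3 of 5 are listed (KRT8, KRT18 and KRT19, summed 136 to 151 and 283 to 307 TPM), of the leukocyte markers 2 of 4 (CD68 and PTPRC, with PTPRC at 0.01 to 0.62 TPM), and of the endothelial markers 0 of 4. No listed marker is at 0 in a library, and the part of these markers in the results below was not tested. In bulk RNA, fewer cells of a type and less RNA per cell cannot be told apart.

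After doxorubicin, most of the listed nuclear pore and transport genes were lower. The table lists 41 of the 87 protein-coding genes that the symbol rule finds in GENCODE release 29, and the other 46 were not analysed here. A gene was called when its limma fit on log2(TPM + 1) gave a fold change over 1.2 and a Benjamini-Hochberg adjusted p under 0.05 over the 5721 genes whose mean reached 1 TPM. Of the 44 genes, 41 lay above that level, NUPR1 and RANBP9 among them, and these 41 are called the pore and transport genes below unless the 2 are named apart. Of the 41, 34 were called lower (82.9%), where 48.5% of all genes tested were. None was called higher, where 22.7% of all genes tested were, and at an unadjusted p under 0.05 a single gene, IPO13, was higher in limma, by less than the 1.2-fold threshold. Counted either way, 34 of 41 were called, against 71.2% of all genes tested. At a fold over 1.5, 22 were called lower, against 26.4%, and at an unadjusted p with the 1.2-fold threshold 35 were, against 49.0%. The median log2 fold change was -0.62 and the genes between the quartiles ran from -0.73 to -0.43, against a median of -0.28 and quartiles of -0.60 and 0.27 over all genes tested. In 37 of the 41 every doxorubicin library lay below every control library, as it did in 48.4% of all genes tested, and in 1 every doxorubicin library lay above, as in 32.3%.

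**Figure D1:**
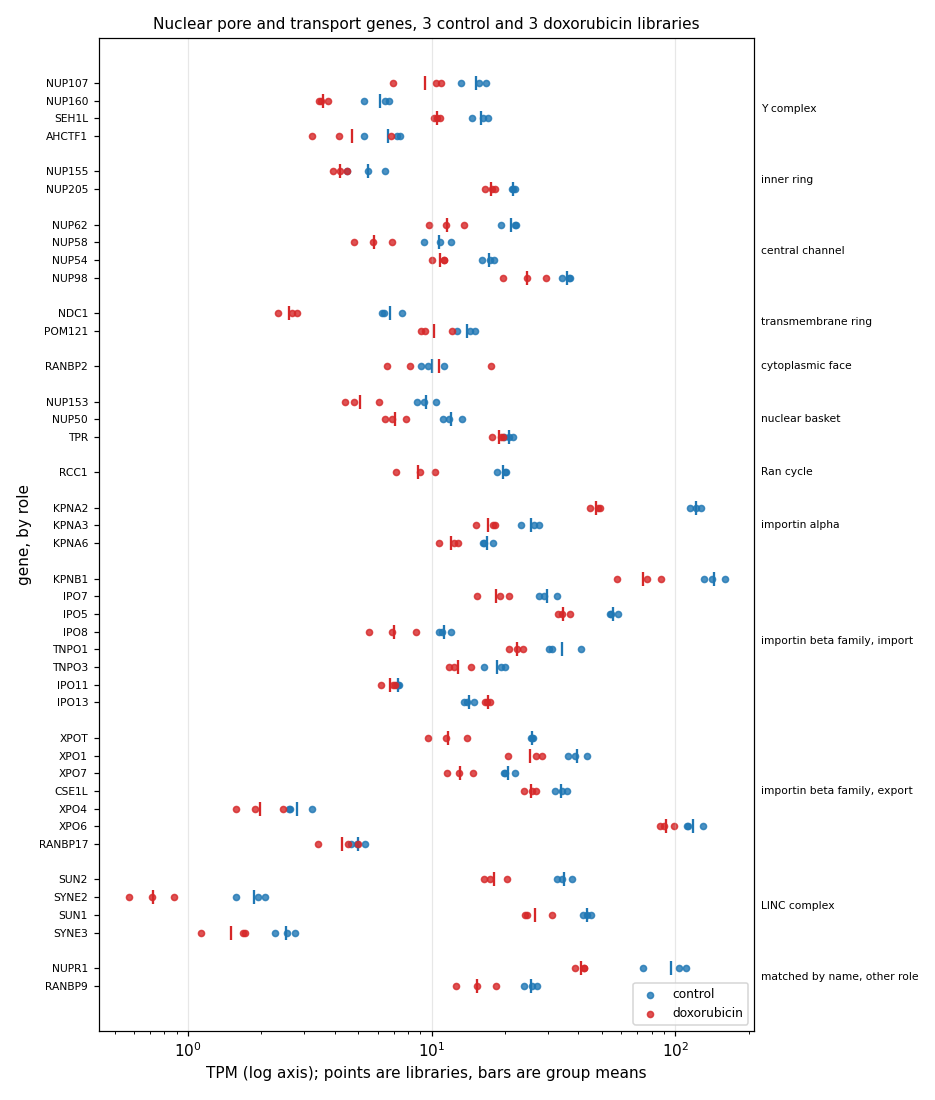
The level of each of the 41 genes above 1 mean TPM in every library, in TPM on a log axis, grouped by role. Blue points are the 3 control and red points the 3 doxorubicin libraries, and vertical bars are group means. The red points lie left of the blue ones without overlap in 37 genes and right of them in 1, IPO13.

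The balance of rises and falls over the whole table depended on the scale. Over all genes tested, 1301 were called higher and 2775 lower on the deposited values, 1889 and 1643 after quantile normalization, and 2517 and 2073 after median ratio scaling. The median of all genes moved from -0.28 to -0.01 and -0.075 with them, and a move toward 0 is built into both scalings. The pore and transport genes stayed on the low side of that median. Their median lay 0.34 below that of all genes on the deposited values (a difference of -0.34), and the difference was -0.39 and -0.32 under the other scalings. Under either of them 28 were called lower, where 28.7% and 36.2% of all genes were, and 1 was called higher, where 33.0% and 44.0% of all genes were. The gene called higher was IPO13 both times.

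**Figure D2:**
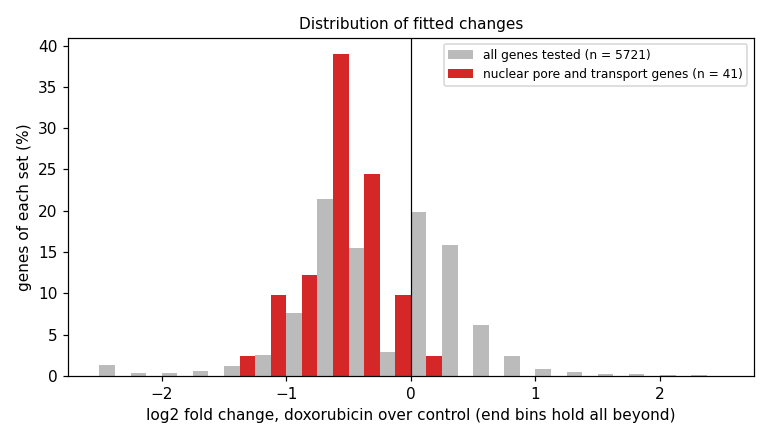
The share of genes (in %) in each bin of fitted log2 fold change, doxorubicin over control, on the deposited scale. Grey bars are all 5721 genes tested and red bars the 41 pore and transport genes, of which 40 lie below 0 and 1 lies above.

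Importin alpha KPNA2, the adaptor that reads classical nuclear localization signals, had the lowest fitted log2 fold change of the group with 1 TPM added. By group means NDC1 and SYNE2, at lower levels, were each at 38.7% of control. KPNA2 (ENSG00000182481, chromosome 17, 68035519 to 68046842 on GRCh38) had 122, 128 and 116 TPM in control and 48.4, 44.5 and 48.9 TPM after doxorubicin. Every doxorubicin library was at less than the lowest control value, and the doxorubicin mean was 38.9% of the control mean. The log2 fold change was -1.34 (limma adjusted p = 1.57e-07, with a standard error of 0.07), and it stayed between -1.38 and -1.30 with each library left out in turn. The transcribed pseudogene KPNA2P3 on the same chromosome had 0.57, 1.15 and 1.55 TPM in control and 0.21, 0 and 0.16 TPM in doxorubicin libraries. How the counting divided reads between such copies is not given in the sources used here.

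The other listed importin alpha genes, KPNA3 and KPNA6, carry the same kind of cargo at lower levels. KPNA3 had 26.2, 27.5 and 23.2 TPM in control and 17.9, 15.2 and 18.2 TPM in doxorubicin libraries, a log2 fold change of -0.56 (limma adjusted p = 0.00104, with a standard error of 0.11). KPNA6 had 16.4, 17.8 and 16.3 TPM in control and 12.4, 10.8 and 12.8 TPM in doxorubicin libraries, a log2 fold change of -0.46 that was no longer past the fold threshold under either other scaling, at -0.22 and -0.23. Neither overlapped between groups, and both moved less than KPNA2. Ratios within a library do not change when it is multiplied by a constant, and these shifted as well: the ratio of KPNA2 to KPNA3 was 4.63, 4.64 and 4.98 in control and 2.71, 2.93 and 2.68 in doxorubicin libraries, and that of KPNA2 to KPNA6 was 7.21 ± 0.163 and 3.95 ± 0.165 (SD, n = 3 each). Together the 3 genes summed to 164 ± 8.96 TPM in control and 76.4 ± 5.13 TPM in doxorubicin libraries (SD, n = 3 each), and KPNA1, KPNA4, KPNA5 and KPNA7 were not analysed here.

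The stretch before the KPNA2 start is shown because the letters TTTGAA and CCAAT, which cell cycle promoters are known to carry, lie close together in it. RefSeq promoters (GRCh38.p14, 250 bases before to 50 after a start) were matched to 36 of the 44 genes, with none for NUPR1, KPNB1, XPO7, SUN1, AHCTF1 and the 3 pseudogenes. Capitals mark TTTGAA and CCAAT on either strand (TTCAAA is TTTGAA read from the other strand), each line runs 5′ to 3′ on the strand of the gene, and positions count back from the RefSeq start.
KPNA2: acgtgtttTTCAAAtccaCCAATgggcaca
SUN2: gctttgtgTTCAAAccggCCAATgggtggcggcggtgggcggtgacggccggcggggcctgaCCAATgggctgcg
NUP98: agttcggtTTCAAAagacgcgttgcCCAAT
NDC1: ggggccttcctgccTTTGAActgcggtggc
The KPNA2 line is chr17:68035628-68035657 on the + strand, bases -107 to -78. The SUN2 line is chr22:38756043-38756117, bases -119 to -45, the NUP98 line is chr11:3797656-3797685, bases -139 to -110, and the NDC1 line is chr1:53838312-53838341, bases -45 to -16, all on the - strand. GENCODE release 29 has transcripts that start further upstream, so that the KPNA2, NUP98 and NDC1 lines also lie in an annotated untranslated exon of their own gene and the SUN2 line in an intron.

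In KPNA2 and in SUN2, TTCAAA began 10 bases before a first CCAAT, and in NUP98 it began 17 bases before it. A further CCAAT began 31, 44 and 42 bases after the first in KPNA2, SUN2 and NUP98. TTCAAA with a CCAAT starting within 20 bases and another within 50 bases of that occurred in these 3 of the 36 promoters and in 9 of 27305 promoters in all (0.033%). This arrangement was defined after these promoters had been read, so its frequency among them is a description only. Taken singly, TTTGAA or TTCGAA on either strand occurred in 10 of the 36 promoters (27.8%, against 16.6% of all promoters and 11.6% of those of genes tested), CCAAT in 13 (36.1%, against 35.7% and 37.6%), and TTCCCGC or TTGGCGC, letters of the E2F site, in 11 (30.6%, against 9.33% and 15.3%). Among promoters of genes tested and called lower these shares were 14.9%, 37.5% and 17.6% in that order. TTTGAA or TTCGAA together with CCAAT occurred in 5 of the 36 (13.9%, against 6.58% and 5.53%). Besides KPNA2, SUN2 and NUP98 these were CSE1L (CCAAT at -93, TTCGAA at -85) and NUP205 (TTTGAA at -165, CCAAT at -148). CSE1L and NUP205 had smaller falls, and both lost the call under median ratio scaling. TTGGCGC can overlap a CCAAT on the opposite strand. A match is a string of letters and no evidence of binding.

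KPNB1, which encodes importin beta, the carrier of the importin alpha complex, also fell. KPNB1 (ENSG00000108424, chromosome 17, 47649476 to 47685505) had 141, 159 and 132 TPM in control and 76.3, 57.7 and 87.3 TPM in doxorubicin libraries. It was the most abundant of these genes in control cells, ahead of KPNA2 and XPO6, and its doxorubicin mean was 51.2% of control. The log2 fold change was -0.97 (limma adjusted p = 0.00029, with a standard error of 0.14). The ratio of KPNA2 to KPNB1 was 0.86, 0.80 and 0.878 in control and 0.634, 0.772 and 0.561 in doxorubicin libraries, so that the adaptor was lower relative to its carrier in each of the 3 doxorubicin libraries.

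Of the 8 listed importins of the importin beta family, 6 were called lower and none higher, where 48.5% and 22.7% of all genes tested were. IPO5 and IPO7, which import ribosomal proteins and histones among other cargo, had log2 fold changes of -0.66 and -0.67, with IPO5 at 54.1, 58.2 and 54.7 TPM in control and 34.2, 33 and 37.1 TPM in doxorubicin libraries. IPO8, TNPO1, which imports RNA-binding proteins such as HNRNPA1, and TNPO3, which imports SR splicing factors, had log2 fold changes of -0.63, -0.58 and -0.49, each with an adjusted p under 0.05 in limma. In these 5 genes every doxorubicin library lay below every control library, as in 48.4% of all genes tested.

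IPO13 and IPO11 stood apart from the other importins. IPO13 (ENSG00000117408, chromosome 1, 43946939 to 43968022), a carrier that works in both directions, had 14.9, 14 and 13.6 TPM in control and 16.6, 17.4 and 16.9 TPM in doxorubicin libraries. All 3 doxorubicin libraries lay above all 3 control libraries. Its log2 fold change of 0.24 (limma adjusted p = 0.0349, with a standard error of 0.09) was under the fold threshold, and its adjusted p was over 0.05 without any 1 library other than doxorubicin replicate 3 (0.0517 to 0.108). After quantile normalization it was 0.47 (limma adjusted p = 0.0015). The ratio of IPO13 to IPO5 was 0.276, 0.241 and 0.249 in control and 0.485, 0.528 and 0.457 in doxorubicin libraries. IPO11 had 7.22, 7.35 and 7.31 TPM in control and 6.19, 6.92 and 7.08 TPM in doxorubicin libraries, a log2 fold change of -0.10 (limma adjusted p = 0.389) that was 0.25 after quantile normalization, so that its direction depends on the scaling.

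Among the 7 listed export carriers, 6 were called lower and none higher, where 48.5% and 22.7% of all genes tested were. Under median ratio scaling 3 were called lower, where 36.2% of all genes were. XPOT, the exportin of transfer RNA, moved most. XPOT (ENSG00000184575, chromosome 12, 64404350 to 64451127) had 26.1, 25.8 and 25.5 TPM in control and 11.4, 9.65 and 14 TPM in doxorubicin libraries, with a log2 fold change of -1.09 (limma adjusted p = 4.97e-05, with a standard error of 0.12). XPO1, also called CRM1, the exportin of proteins with leucine-rich export signals, had 38.9, 43.5 and 36.2 TPM in control and 26.9, 20.6 and 28.3 TPM in doxorubicin libraries, a log2 fold change of -0.63 (limma adjusted p = 0.00119). Within libraries the ratio of XPOT to XPO1 was 0.672, 0.594 and 0.704 in control and 0.425, 0.469 and 0.496 in doxorubicin libraries, without overlap.

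The remaining export carriers moved less. XPO7 had a log2 fold change of -0.62. CSE1L, the exportin that returns importin alpha to the cytoplasm, had 32.2, 36 and 34.2 TPM in control and 25.7, 24 and 26.7 TPM in doxorubicin libraries, a log2 fold change of -0.41 (limma adjusted p = 0.00176) that became -0.17 and lost the call under median ratio scaling (limma adjusted p = 0.0545). The change of CSE1L was smaller than those of its cargo KPNA2 and of KPNB1, and the ratio of KPNB1 to CSE1L was 4.4, 4.43 and 3.84 in control and 2.97, 2.4 and 3.27 in doxorubicin libraries. XPO6, the exportin of actin and profilin, was abundant at 130, 112 and 113 TPM in control and 89.6, 87 and 98.9 TPM in doxorubicin libraries, a log2 fold change of -0.36 that was -0.12 (limma adjusted p = 0.168) under median ratio scaling. XPO4 had a log2 fold change of -0.37 (limma adjusted p = 0.0397) and lost its call without any 1 of control replicates 1, 2 and 3 or doxorubicin replicates 1 and 2, with adjusted p from 0.0531 to 0.133, and under either other scaling, at -0.04 and -0.20. RANBP17, a little studied carrier at 3.41 to 5.33 TPM, overlapped between groups (log2 fold change -0.18, adjusted p = 0.234 from limma) and was at 0.19 after quantile normalization.

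RCC1, the exchange factor that loads RAN with GTP on chromatin, was the only listed gene of the RAN cycle. RCC1 (ENSG00000180198, chromosome 1, 28505943 to 28539300) had 18.6, 20.2 and 20 TPM in control and 8.94, 7.11 and 10.4 TPM in doxorubicin libraries. The doxorubicin mean was 45.0% of control, and the log2 fold change was -1.08 (limma adjusted p = 7.13e-05, with a standard error of 0.13). RCC1 overlaps the host gene SNHG3 on the same strand, and its value is uncertain for that reason. Its promoter held the E2F letters gcgggaa at position -192. RAN, RANGAP1, RANBP1, RANBP3 and NUTF2 were not analysed here, and neither were the messenger RNA export receptor genes NXF1, NXT1 and NXT2.

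**Figure D3:**
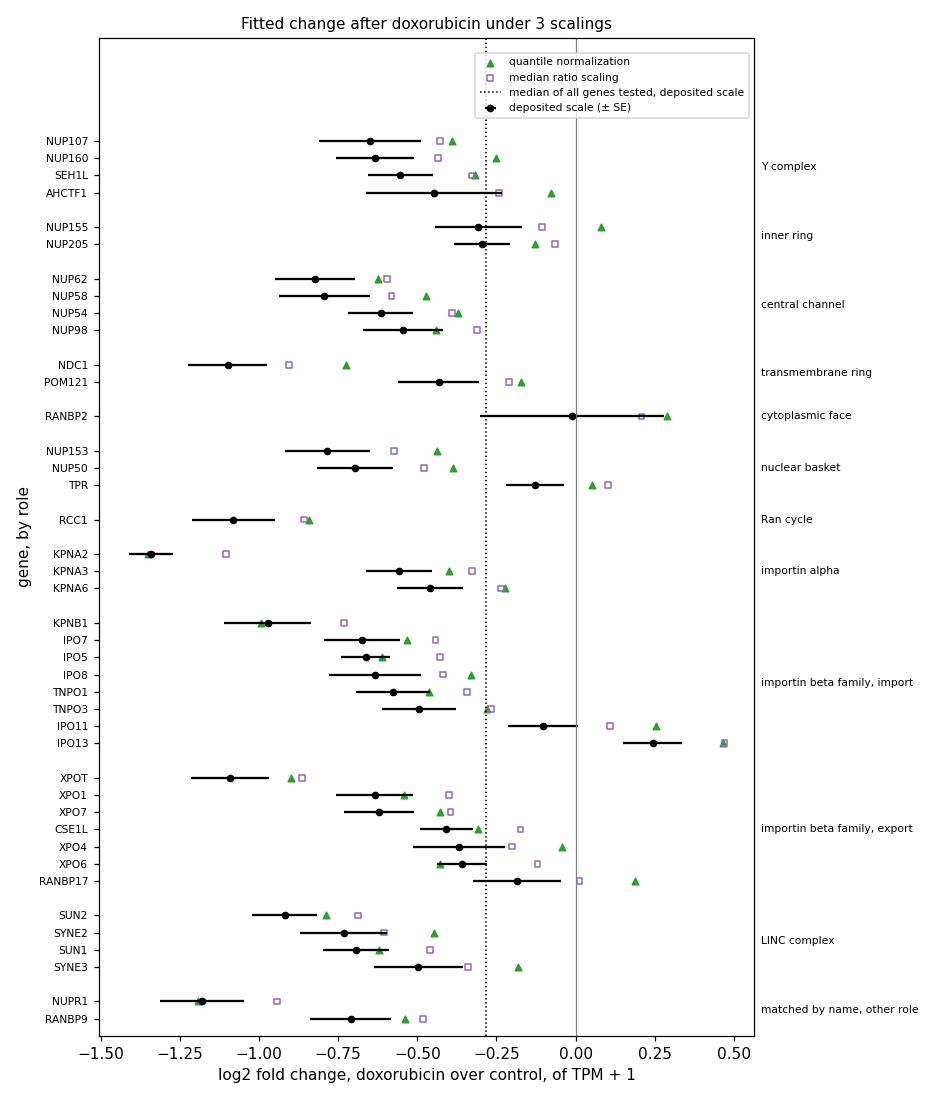
Fitted log2 fold change of TPM + 1, doxorubicin over control, for each of the 41 genes by role. Black points with bars are the deposited scale with the standard error, green triangles quantile normalization and open squares median ratio scaling, and the dotted line is the median of all genes tested on the deposited scale (-0.28). KPNA2, NUPR1, NDC1, XPOT and RCC1 lie furthest left, and IPO13 alone lies right of 0 on all 3 scales with an adjusted p under 0.05 on each.

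Of the 16 listed nucleoporin genes, 12 were called lower and none higher, where 48.5% and 22.7% of all genes tested were. Summed, they went from 229 ± 12.2 TPM in control to 157 ± 15.6 TPM in doxorubicin libraries (SD, n = 3 each). The sharpest fall was in a membrane anchor. NDC1 (ENSG00000058804, chromosome 1, 53765460 to 53838860), a transmembrane nucleoporin that helps to insert new pores into the envelope, had 6.25, 7.53 and 6.37 TPM in control and 2.80, 2.33 and 2.66 TPM in doxorubicin libraries. Its doxorubicin mean was 38.7% of control, with a log2 fold change of -1.10 (limma adjusted p = 4.77e-05, with a standard error of 0.13). POM121, the other listed anchor, had 14.3, 15 and 12.7 TPM in control and 9.43, 9.01 and 12.1 TPM in doxorubicin libraries, a log2 fold change of -0.43 (limma adjusted p = 0.0114) that lost the call under quantile normalization and median ratio scaling, with adjusted p of 0.124 and 0.0627. POM121 has a near-identical copy, POM121C, and its value is uncertain for that reason. The ratio of NDC1 to POM121 was 0.436, 0.502 and 0.501 in control and 0.297, 0.259 and 0.22 in doxorubicin libraries.

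All 4 listed nucleoporins of the central channel, which carry phenylalanine-glycine repeats, were called lower under each of the 3 scalings. Of all genes tested, 48.5% were called lower on the deposited values, 28.7% after quantile normalization and 36.2% under median ratio scaling. NUP62 (ENSG00000213024, chromosome 19, 49906825 to 49929763) had 22.2, 22 and 19.3 TPM in control and 9.75, 11.4 and 13.6 TPM in doxorubicin libraries, a log2 fold change of -0.82 (limma adjusted p = 0.000317, with a standard error of 0.13). Its channel partners NUP58 and NUP54, with which it forms the NUP62 subcomplex, had log2 fold changes of -0.79 and -0.62. NUP98, which also binds messenger RNA export factors and chromatin, had 37, 34.3 and 36.5 TPM in control and 24.7, 19.7 and 29.5 TPM in doxorubicin libraries, a log2 fold change of -0.55 (limma adjusted p = 0.00348). In all 4 every doxorubicin library lay below every control library, as in 48.4% of all genes tested.

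The scaffold consists of the Y complex and the inner ring. In the Y complex, 3 of 4 listed genes were called lower, where 48.5% of all genes tested were. After quantile normalization 2 of the 4 were, where 28.7% of all genes were. NUP107 had 15.7, 16.7 and 13.2 TPM in control and 10.9, 6.96 and 10.4 TPM in doxorubicin libraries, a log2 fold change of -0.65 (limma adjusted p = 0.00472), NUP160 of -0.63 and SEH1L of -0.55. NUP160 fell below the fold threshold after quantile normalization, at -0.25. AHCTF1, also called ELYS, which seeds pore assembly on chromatin after mitosis, had 7.19, 7.4 and 5.26 TPM in control and 6.79, 3.24 and 4.15 TPM in doxorubicin libraries. Doxorubicin replicate 1 lay within the control range, and the log2 fold change was -0.45 (limma adjusted p = 0.0794) with it and -0.69 (limma adjusted p = 0.0082) without it. Without control replicate 3 it was -0.58 (limma adjusted p = 0.0431).

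The 2 listed inner ring genes had the smallest changes among the scaffold genes on the deposited values, while after quantile normalization AHCTF1 was at -0.08. NUP205 (ENSG00000155561) had 21.4, 21.6 and 22 TPM in control and 17.8, 16.5 and 18.2 TPM in doxorubicin libraries, a log2 fold change of -0.30 (limma adjusted p = 0.0117) that was -0.13 and -0.064 under the other scalings and lost the call there. Without doxorubicin replicate 2 its log2 fold change was -0.26, also short of the fold threshold. NUP155 had 5.50, 6.45 and 4.49 TPM in control and 4.48, 4.2 and 3.93 TPM in doxorubicin libraries, a log2 fold change of -0.31 (limma adjusted p = 0.0618), and was at 0.08 after quantile normalization. Without control replicate 3 its log2 fold change was -0.42 (limma adjusted p = 0.0238). The ratio of the channel gene NUP62 to the inner ring gene NUP205 was 1.04, 1.02 and 0.877 in control and 0.549, 0.694 and 0.749 in doxorubicin libraries. The groups did not overlap in this ratio. The ratio of the Y complex gene NUP107 to NUP205 was 0.734, 0.771 and 0.6 in control and 0.613, 0.422 and 0.573 in doxorubicin libraries. In that ratio the groups overlapped.

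The nuclear basket lies on the inner face of the pore. NUP153 (ENSG00000124789, chromosome 6, 17615035 to 17706834) had 9.28, 10.5 and 8.68 TPM in control and 4.78, 4.43 and 6.10 TPM in doxorubicin libraries, a log2 fold change of -0.79 (limma adjusted p = 0.00063, with a standard error of 0.14), and NUP50, which helps to release cargo from importin alpha, had a log2 fold change of -0.70. TPR, the long coiled-coil protein that builds the filaments of the basket, had 20.9, 19.8 and 21.6 TPM in control and 17.8, 19.6 and 19.3 TPM in doxorubicin libraries. The TPR groups were close, with the highest doxorubicin value just under the lowest control value, and the log2 fold change was -0.13 (limma adjusted p = 0.206) on the deposited values and 0.05 and 0.10 under the other scalings. The ratio of NUP153 to TPR was 0.444, 0.529 and 0.402 in control and 0.269, 0.226 and 0.316 in doxorubicin libraries.

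RANBP2, also called NUP358, forms the cytoplasmic filaments and was the only listed gene of that face. It had 9.65, 11.3 and 9.07 TPM in control and 17.5, 6.57 and 8.17 TPM in doxorubicin libraries. Doxorubicin replicate 1 was the highest of all 6 libraries, while the other two doxorubicin libraries lay below every control library. The log2 fold change was -0.01 (limma adjusted p = 0.972) with all libraries and -0.40 (limma adjusted p = 0.0443) without doxorubicin replicate 1. RANBP2 shares most of its sequence with the RGPD genes, and its value is uncertain for that reason.

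The complex that couples the envelope to the cytoskeleton joins SUN proteins of the inner membrane to nesprins (SYNE genes) of the outer membrane. All 4 listed genes of it were called lower, where 48.5% of all genes tested were. SUN2 (ENSG00000100242, chromosome 22, 38734725 to 38794143) had 34.2, 37.9 and 32.8 TPM in control and 17.3, 16.4 and 20.4 TPM in doxorubicin libraries, a log2 fold change of -0.92 (limma adjusted p = 4.33e-05, with a standard error of 0.10). SUN1 had 45.3, 43.3 and 42 TPM in control and 24.5, 24.2 and 31.3 TPM in doxorubicin libraries, a log2 fold change of -0.69 (limma adjusted p = 0.000268). The ratio of SUN2 to SUN1 was 0.755, 0.875 and 0.782 in control and 0.707, 0.678 and 0.652 in doxorubicin libraries, so both fell, SUN2 by more.

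The nesprin genes were near the lower end of expression. SYNE2 had 2.08, 1.93 and 1.57 TPM in control and 0.71, 0.57 and 0.88 TPM in doxorubicin libraries. Its doxorubicin mean was 38.7% of control, and its log2 fold change of -0.73 (limma adjusted p = 0.001) understates this because 1 TPM is added before the logarithm. SYNE3, which binds the intermediate filament linker plectin, had a log2 fold change of -0.50 and lost the call after quantile normalization (limma adjusted p = 0.181). SYNE1 was not analysed here.

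The genes that share only a symbol with the transport genes also fell. NUPR1 (ENSG00000176046, chromosome 16, 28532708 to 28539174) had 104, 73.5 and 110 TPM in control and 38.8, 42.4 and 42.3 TPM in doxorubicin libraries, a log2 fold change of -1.18 (limma adjusted p = 6.94e-05, with a standard error of 0.13). RANBP9 had a log2 fold change of -0.71 (limma adjusted p = 0.000769). Without NUPR1 and RANBP9, 32 of the remaining 39 genes were called lower (82.1%), against 48.5% of all genes tested. Their median log2 fold change was -0.62, against -0.28 over all genes tested. The other pseudogenes were near 0, XPOTP1 at 0.03 to 0.20 TPM in control and 0 to 0.02 TPM in doxorubicin libraries and POM121L9P at 0.14 to 0.35 and 0.30 to 0.50 TPM.

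The doxorubicin libraries differed among themselves in a shared way. Relative to the control mean, the median of the 41 genes on the log2 scale was -0.57 in doxorubicin replicate 1, -0.79 in replicate 2 and -0.47 in replicate 3. Replicate 2 had the lowest value of the doxorubicin group in 34 of the 41 genes (82.9%), against 51.8% of all genes tested, and replicate 3 the highest in 29 (70.7%), against 56.2%. In the control group, replicate 2 was highest in 27 (65.9%, against 45.7%) and replicate 3 lowest in 29 (70.7%, against 47.7%). Without doxorubicin replicate 2, 32 of the 41 genes were called lower, where 2539 of all 5721 genes tested were. The median log2 fold change of the 41 was then -0.53. For a single gene a two-sided exact permutation test with 3 libraries a group has 0.1 as its smallest p, and this is its value for each gene without overlap.

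Gene length and level ran differently with the change in the pore and transport genes than over the table as a whole. Long genes were lower after doxorubicin across all genes tested, with Spearman's rank correlation of -0.441 between genomic span and log2 fold change over 5700 genes, and among the 41 pore and transport genes it was 0.437. These are correlations across genes measured in the same 6 libraries, which are not independent, and no p is given. The 41 include NUPR1 and RANBP9, which share only the name, and the correlation without them was not computed. KPNA2, with a span of 11324 bases, and NUPR1, with 6467, were the shortest and had the lowest fitted log2 fold changes with 1 TPM added, while RANBP17, with 438146, and IPO11, with 224611, were not called. In the band of genes spanning 21945 to 47200 bases, 7 of 7 pore and transport genes were called lower with a median log2 fold change of -0.82, against 51.2% and -0.38 for all genes there. In the next band, spanning 47240 to 109728 bases, which holds 25 of the 41, 21 were called lower with a median of -0.62, against 69.4% and -0.48. Among the longest genes, from 109735 bases, 4 of 6 were called lower with a median of -0.36, against 75.8% and -0.53. By level, genes above 54.1 mean TPM were called lower in 25.3% of cases with a median of 0.17, and KPNB1, XPO6 and KPNA2, with NUPR1, were the 4 at that level and were called lower. Between 18.8 and 54.0 mean TPM, 11 of 12 were called lower with a median of -0.61, against 39.5% and 0.10 for all genes there. Between 8.25 and 18.8 mean TPM, 13 of 15 were, with a median of -0.62, against 54.6% and -0.41. Between 3.83 and 8.23 mean TPM, 3 of 7 were called lower with a median of -0.45, against 65.4% and -0.48 for all genes there. Below that, 3 of 3 were, with a median of -0.50, against 57.7% and -0.42.

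**Figure D4:**
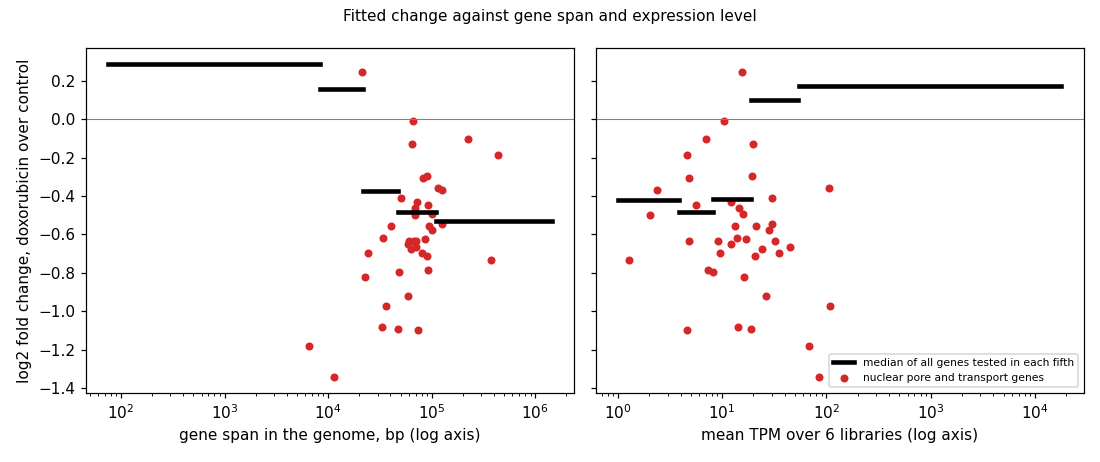
Fitted log2 fold change of the 41 genes (red points) against genomic span in bp and against mean TPM over the 6 libraries, both on log axes. Black bars are the median of all genes tested in each of 5 bands of span or level that hold nearly equal numbers of genes. The 2 shortest genes, NUPR1 and KPNA2, lie lowest on the left panel, while the median of all genes there is above 0.

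Genes grouped here with the pore that carry other names were counted in 3 lists. Of the 22 genes listed for messenger RNA export, 7 are in the table and 4 were called lower, from ZC3H11A at -0.44, and none higher, with THOC6 at 0.19, while under median ratio scaling 0 were called lower and 3 higher. Of 11 genes grouped here as cargo adaptors and related factors, 4 are in the table, of which 3 were called lower. ARL6IP1, whose part in nuclear transport these data do not show, fell most, at -0.91. In that list 1 was called higher, HIKESHI, the importer of heat shock protein HSP70, at 0.30. Of 13 genes of the lamina and inner envelope, 8 are in the table and 7 were called lower, from LMNB1 at -3.35, with LMNA at 0.14 not called. Under median ratio scaling 6 were called lower and 1 higher. LMNB1 fell from 15.7, 16.7 and 13.9 TPM to 0.82, 0.67 and 0.38 TPM (limma adjusted p = 3.08e-08), more than any pore or transport gene. Over all genes tested, 48.5% were called lower and 22.7% higher on the deposited values, and 36.2% and 44.0% under median ratio scaling.

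Cell cycle genes moved in the same libraries by larger amounts. Of 11 listed markers, MKI67, TOP2A, CCNB1, CCNB2, CCNA2, CDK1, BUB1, AURKA, AURKB and PLK1 were called lower, with log2 fold changes from -3.81 to -0.70, and the cell cycle inhibitor CDKN1A was called higher at 1.06. The part of cell division in the levels of the pore and transport genes was not tested.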

How the data were processed

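Paired-end RNA-seq of WI-38 cells had a read length of 150 bp. The authors' deposited table gives 1 value per gene for 6 libraries, read here as TPM. The submitters' processing notes name CASAVA, HISAT2, StringTie, RSEM, DESeq2 and edgeR and the build GRCm38, a mouse build, while the gene identifiers are human. The roles of these tools are not given in the sources used here. All 6499 listed genes have the authors' fold change over 1.2 and p under 0.05, and these columns of their comparison were used for nothing else. Depth is unknown.

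A pseudocount of 1 was added before taking log2, the 5721 genes whose mean reached 1 TPM were kept, and the 3 doxorubicin libraries were compared with the 3 control libraries in limma 3.58.1 (eBayes, trend and robust) in R 4.3.3, with the Benjamini-Hochberg adjustment over all genes kept. A fold change on this scale understates that of low genes. The fit was tested on simulated data with the residual spread of these genes, at an adjusted p under 0.05 without a fold threshold. It recovered 30 of 66 genes changed by a log2 of 0.5, 61 of 67 at 1 and 66 of 67 at 2. There were 4 false calls, and far fewer genes were changed there than were called here. Every gene whose symbol matches the rule counts as a member. Values per library were given for a fixed list of central genes and for the lowest and highest change of each role, and the ratios between genes and some further genes were chosen after their values were seen. The genes and lists were chosen with earlier results of these data known. Positions come from GENCODE release 29 (GRCh38) by Ensembl identifier, which matched 6462 listed genes, and promoter sequences from RefSeq (GRCh38.p14) by symbol. Alternatives were another pseudocount (0.1), filter (none, or a mean of 5), scaling, threshold (1.5-fold, or unadjusted p) and variance model, a block on the replicate number, and fits without each library.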

Additional observations from a re-analysis of the deposited data

How the results depend on the processing

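The count of 34 pore and transport genes called lower ran from 28 to 35 over all alternatives other than the fold threshold of 1.5, under which it was 22, with 1509 lower and 432 higher over all genes. The count called higher was 0 except for 1 (IPO13) under quantile normalization and 1 under median ratio scaling, where the median log2 fold change of these genes was -0.40 and -0.395. Over all genes and apart from the 1.5-fold threshold, the count called lower ran from 1643 (quantile normalization) to 2973 (no filter on low values). After median ratio scaling 2517 were called higher. With a minimum mean of 5 TPM, 29 of the 34 still tested were called lower, where 1870 of all genes kept were called lower and 1030 higher. Their median lay further from that of all genes, at a difference of -0.674. The median of the pore and transport genes itself was -0.628, against -0.622 in the main fit, so it was mainly the median of all genes that moved. Changes that turned positive were those of TPR (0.053 and 0.10), IPO11 (0.25 and 0.11), RANBP17 (0.19 and 0.012) and RANBP2 (0.29 and 0.21) under quantile normalization and median ratio scaling, and NUP155 (0.08) under quantile normalization, none of them called. The cause was not tested beyond the scaling itself.

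With each library left out in turn, the count called lower was 32 to 35, where 2520 to 2809 of all genes tested were. The median log2 fold change of the pore and transport genes was -0.68 to -0.53. The value of RANBP2 was -0.40 to 0.25, positive without control replicate 2 (0.07) and without doxorubicin replicates 2 (0.25) and 3 (0.11). Of the 34 genes called lower, 26 kept the call under every alternative in which they were tested other than the fold threshold of 1.5 (NDC1 and SYNE2 lie below the minimum mean of 5 TPM), and CSE1L, KPNA6, NUP160, NUP205, POM121, SYNE3, XPO4 and XPO6 lost it under at least 1. With the replicate number as a block, 34 were called lower, where 2670 of all genes tested were. AHCTF1 gained the call (adjusted p = 0.0495 from limma) and XPO4 lost it (0.0705). No shared effect of the replicate number was visible. The correlations of same-numbered deviations were -0.0627, -0.193 and -0.23, and 0 of 6 libraries correlated best with their own number. With 3 libraries a group this cannot show whether cultures were handled in pairs. Without read counts, the values under about 1 TPM have no known counting error.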
